A study of Sus scrofa with 24 samples.

Results

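The solute carrier (SLC) genes were followed in the blood mononuclear cells of pigs, across 6 diets. They were chosen by name alone: every probe set of the array whose gene symbol starts with SLC, a number and a letter, with SLC25A37 left out. The rule found 179 of 23999 probe sets. Of these, 174 carried 1 symbol and covered 119 genes, and the other 5 carried 2 gene entries each, so no gene is named from them. Among the 119 genes, 116 encode transporters and 3 (SLC9A3R1, SLC9A3R2 and SLC2A4RG) encode regulators that only share the name. After the dimmest 25% of all probe sets were left out, 138 members from 99 named genes were tested, 77.1% of the members against 75.0% of all probe sets.

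RNA came from peripheral blood mononuclear cells, the lymphocytes and monocytes that a density gradient separates from granulocytes and red cells. One Affymetrix porcine array was hybridised for each of 24 pigs, with 2 females and 2 males in each of 6 groups, and every diet was fed for 4 months. In the AD-GE group, an atherogenic diet, in which coconut oil made up 10%, beef tallow 5.5% and the bile acid cholic acid 1%, was given with grape extract at 1 g per 70 kg of body weight. The AD-GE-RES group received the same atherogenic diet with a grape extract enriched in resveratrol, again at 1 g per 70 kg, which supplied 18 mg of resveratrol per 70 kg. The AD-RES group received the atherogenic diet with resveratrol alone at 18 mg per 70 kg, and the AD group received it with no supplement. The CT-GE-RES group ate standard chow with the enriched extract at the same doses, and the CT group ate standard chow alone. The comparisons with AD share its 4 animals, and AD against CT shares animals with each of the other 4 comparisons.

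Solute carriers move nutrients, ions and metabolites across the plasma membrane and the membranes of organelles, mostly as exchangers or by coupling to ion gradients. Leukocytes use them to take up glucose and amino acids, to release lactate, to keep metals away from microbes in phagosomes and to feed mitochondria and the Golgi with nucleotides and nucleotide sugars. Roles given below are those described in human or mouse cells.

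Array medians lay close together, the lowest at 38.6 intensity units. The 3′/5′ signal ratio of control transcripts, a sign of RNA degradation, is given on the log2 scale throughout. It ranged between 1.37 and 4.39 and was highest in animal 4 of CT, followed by animal 2 of AD-GE-RES (4.08). Group means were 3.15 in CT, 2.69 in AD-GE-RES, 2.46 in AD-GE, 2.20 in CT-GE-RES, 2.19 in AD and 1.92 in AD-RES. The SDs within groups lay between 0.23 and 1.24. Among marker genes of the expected cells, 6 of 8 monocyte genes, 7 of 8 T cell genes, 2 of 6 B cell genes and 2 of 6 cytotoxic cell genes were above the filter. Genes of cells that a gradient should remove were above the filter too, with 5 of 8 neutrophil granule genes and 4 of 8 erythroid genes. So were 6 of 8 platelet genes. The filter kept 75.0% of all probe sets, so these counts do not show that a cell type was present. A listed gene without an annotated probe set would count as not passing. The array of animal 4 of CT stood apart, correlating least with the rest on average (0.957, next lowest 0.968). It also had the highest neutrophil granule mean (1.32 relative to all arrays), the highest erythroid mean (1.84) and the lowest T cell mean (-1.34). Platelet genes averaged 0.54 in CT and 0.46 in CT-GE-RES, and between -0.50 and 0.07 in the atherogenic groups (SDs between 0.49 and 0.90). T cell genes averaged -0.48 in CT (SD 0.63) and between -0.04 and 0.23 in the other groups. The part of these cell means in the differences between diets was not tested. In bulk samples, fewer cells of a type and less RNA per cell cannot be told apart.

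Mitochondrial carriers and 1 regulator gave the brightest signals. The ADP/ATP carrier SLC25A6 had a mean log2 intensity of 12.70, the phosphate carrier SLC25A3 of 11.99, the regulator SLC9A3R1 of 10.61, the ADP/ATP carrier SLC25A5 of 10.11 and the ATP-Mg/phosphate carrier SLC25A24 of 9.98. Outside the mitochondrial carriers, the transporters with the brightest probe sets were SLC2A3, which takes up glucose, at 9.56, SLC7A1, which takes up arginine and lysine, at 9.46, SLC38A1, which takes up glutamine, at 9.05 for its brightest probe set, SLC46A2 at 8.84 and SLC1A5, which exchanges glutamine, at 8.61. Brightness orders the signals of probe sets and not amounts of RNA. SLC25A6 stayed between 12.47 and 12.93 in all 24 animals, while SLC2A3 ranged between 8.52 and 11.04. The largest SDs within groups were those of the fructose carrier SLC2A5 (0.65), the peptide transporter SLC15A2 (0.60), the glucose carrier SLC2A3 (0.56) and the phagosomal metal transporter SLC11A1 (0.55), against a median of 0.21 for the members and 0.22 for all probe sets tested. These genes, unlike those of the comparisons, were picked for their spread after it was seen. For 20 member genes no probe set passed the filter, and they included the liver bile acid carrier SLC10A1, the glutamate carriers SLC1A2 and SLC1A3, the liver glucose carrier SLC2A2 and the intestinal glucose carrier SLC5A1.

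No SLC probe set passed an adjusted p of 0.05 in any of the 5 comparisons of the study (limma on log2 intensity with sex in the model, Benjamini-Hochberg over 17999 probe sets), and 0% of all probe sets did. The counts below are therefore given at an unadjusted p under 0.05. The named genes are those with the smallest p in each direction, and not all of them reach that threshold. Groups of 4 animals still bounded the differences: between 94.9% and 97.1% of the members had a 95% interval that lay within 2-fold in either direction, depending on the comparison.

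**Figure D1:**
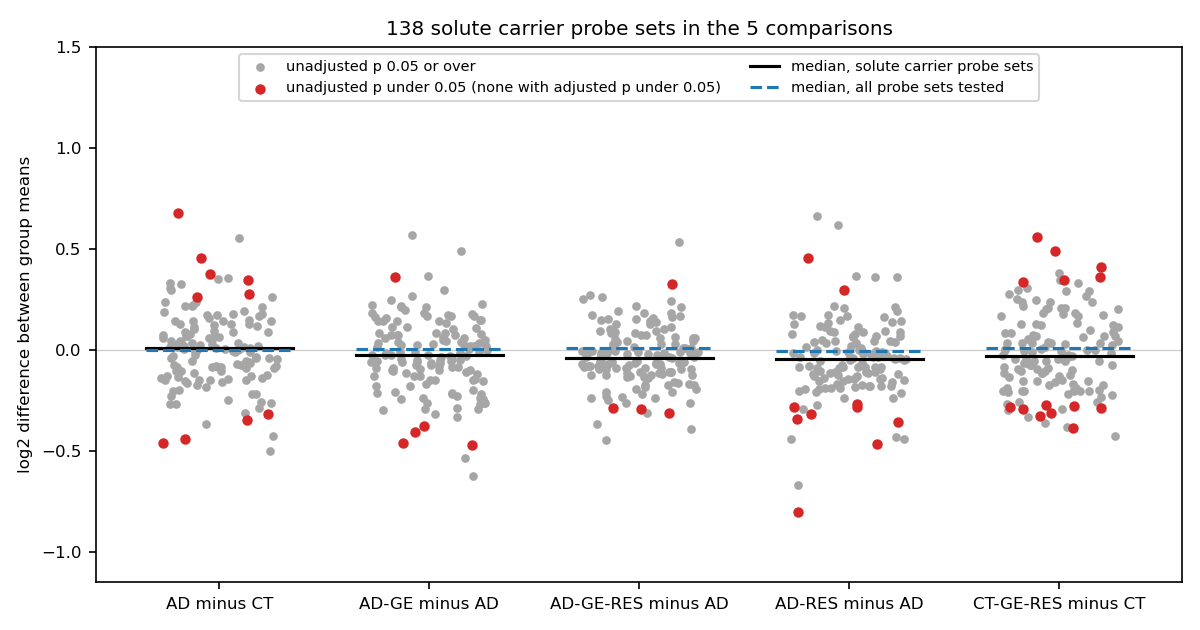
Log2 difference of group means (vertical axis) for the 138 tested SLC probe sets in the 5 comparisons, with red points at an unadjusted p under 0.05, a black line at the median of the members and a dashed line at the median of all probe sets tested. Most points lie within 0.5 of zero, no point passed an adjusted p of 0.05, and the lowest point is SLC11A1 in AD-RES against AD at -0.80.

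The first comparison asked what the atherogenic diet did on its own. In AD against CT animals, 10 of 138 members had an unadjusted p under 0.05, of which 6 were higher and 4 lower. This was 7.25% of the members, against 3.25% of all probe sets higher and 3.13% lower. Differences leaned neither way, with 71 members higher and 67 lower and a median of 0.01 on the log2 scale, against 0.00 for all probe sets. Groups did not overlap for 2 members, against 2.74% of all probe sets.

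Among the mitochondrial carriers, 15 of 23 probe sets were higher in AD. SLC25A36, which carries pyrimidine nucleotides into mitochondria, had log2 intensities of 6.12, 6.03, 6.26 and 6.01 in AD animals, against 5.90, 5.89, 5.50 and 5.29 in CT animals. Every AD animal lay above every CT animal. The difference was 0.46 (SE 0.17, limma adjusted p = 0.757). SLC25A38, the glycine carrier that feeds haem synthesis, differed by -0.34 at 1 probe set and by 0.33 at the other, so its probe sets disagreed.

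Of the amino acid carriers, SLC38A1 had the largest difference of all members. The probe set concerned gave 6.87, 7.06, 7.76 and 7.09 in AD animals, against 6.94, 6.85, 6.64 and 5.64 in CT animals. Animal 4 of CT was far below the rest, and without it the difference of 0.68 (SE 0.25, limma adjusted p = 0.757) was 0.36. The other probe sets of SLC38A1 differed by 0.38 and 0.09. This animal's array had the highest 3′/5′ ratio on the log2 scale (4.39), with animal 2 of AD-GE-RES close behind (4.08). It also had the lowest T cell mean (-1.34) and the highest neutrophil granule (1.32) and erythroid (1.84) means. The relation of SLC38A1 to the 3′/5′ ratio and a fit that included the ratio are given below. The part of the cell means in the result was not tested.

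The lactate exporter SLC16A3 ran lower in AD. It gave 6.25, 5.93, 5.71 and 5.85 in AD animals, against 6.64, 6.31, 6.37 and 6.18 in CT animals. The ranges overlapped by a single AD animal. The difference was -0.44 (SE 0.20, limma adjusted p = 0.757). The proposed sugar carrier SLC45A3 differed by -0.32, with -0.26 and 0.08 at its other probe sets, and the scaffold protein SLC9A3R1, which tethers transporters to the cortical actin, by -0.46. Other genes named by their p were the Golgi protein SLC35A4 (0.26), the choline transporter-like SLC44A2 (0.35), the secretory pathway zinc transporter SLC30A5 (0.28) and the folate transporter SLC46A1 (-0.26). The other probe set of SLC30A5 differed by -0.22, that of SLC46A1 by 0.21 and that of SLC35A4 by -0.10, while the other 2 of SLC44A2 differed by 0.01 and 0.03. With 1 animal left out, SLC44A2 differed by 0.19 (without animal 3 of CT), SLC30A5 by 0.18 (without animal 3 of AD) and SLC46A1 by -0.15 (without animal 4 of AD).

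**Figure D2:**
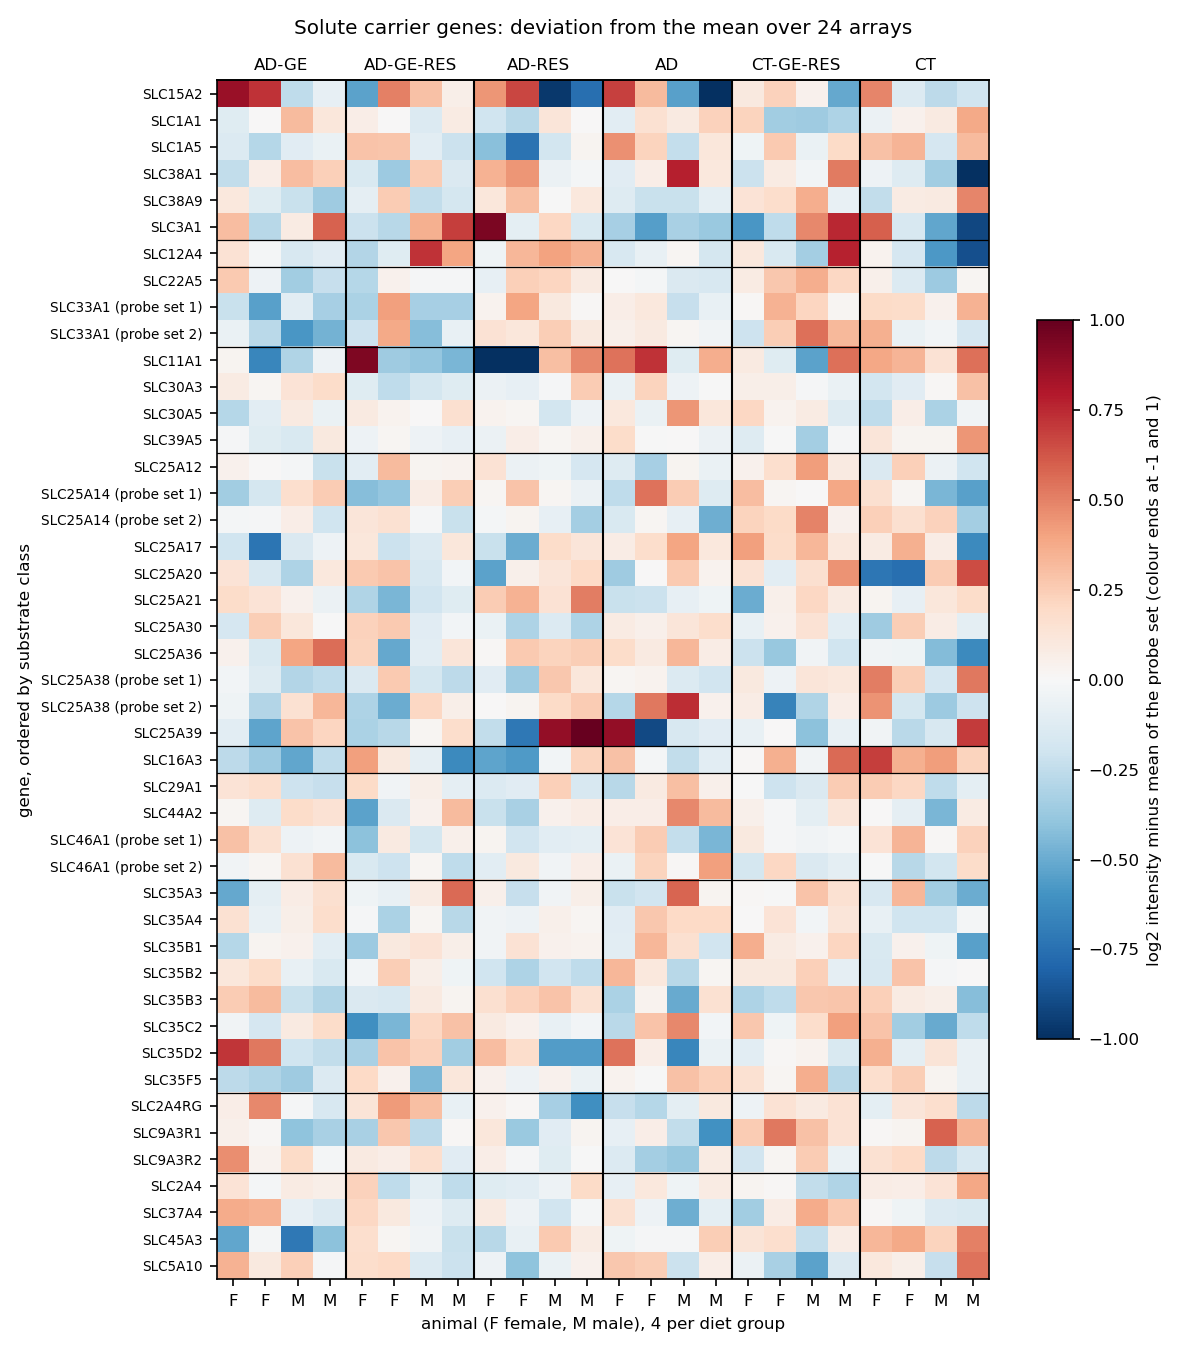
Log2 intensity minus the mean of each probe set over 24 arrays, for the genes named in any comparison (rows, ordered by substrate class) in each animal (columns, 4 per diet). Colours vary as much within diets as between them, and single animals such as the last CT male stand out across several rows, for example at 5.64 for SLC38A1.

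The second comparison asked what grape extract changed in animals on the atherogenic diet. In AD-GE against AD animals, the unadjusted p was under 0.05 for 1 member that was higher and 4 that were lower, where 2.79% of all probe sets were higher and 3.3% lower. Groups did not overlap for 9 members, 2 higher and 7 lower, against 4.72% of all probe sets. Of the members, 77 were lower and 61 higher, with a median of -0.03 against 0.01 for all probe sets. Nucleotide sugar carriers were lower at 10 of 14 probe sets (10 genes), with none past the adjusted threshold. The class of lipid, bile acid and organic ion carriers was lower at 6 of 7 (5 genes), again with none past it. Every tested probe set of SLC33A1 was among those lower.

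SLC45A3 had the smallest p. It gave 4.85, 5.35, 4.65 and 4.95 in AD-GE animals, against 5.33, 5.35, 5.36 and 5.61 in AD animals. A single AD-GE female reached the AD range. The difference was -0.46 (SE 0.14, limma adjusted p = 0.683), but the other 2 probe sets of SLC45A3 differed by only 0.06 and -0.08.

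SLC25A17, the peroxisomal carrier of coenzyme A and related cofactors, gave 7.14, 6.61, 7.19 and 7.29 in AD-GE animals, against 7.41, 7.51, 7.73 and 7.44 in AD animals. SLC33A1, which moves acetyl-CoA into the endoplasmic reticulum, gave 5.23, 5.03, 4.71 and 4.83 in AD-GE animals, against 5.34, 5.38, 5.31 and 5.26 in AD animals. SLC35F5 gave 7.48, 7.43, 7.38 and 7.59 in AD-GE animals, against 7.77, 7.73, 8.02 and 7.97 in AD animals. All 3 genes had groups that did not overlap, with differences of -0.47, -0.38 and -0.40, and all 3 had limma adjusted p-values between 0.746 and 0.804. The other probe sets of SLC33A1 differed by -0.27 and -0.06.

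Higher in AD-GE were the scaffold protein SLC9A3R2 (0.36), the peptide transporter SLC15A2 (0.49, or 0.27 without animal 4 of AD), the glucose 6-phosphate carrier SLC37A4 (0.25, or 0.14 without animal 3 of AD), the mitochondrial carrier SLC25A21 (0.22) and the subunit of a kidney cystine transporter SLC3A1 (0.57, SE 0.32, limma adjusted p = 0.826). SLC3A1 gave 5.42, 4.83, 5.19 and 5.70 in AD-GE animals, against 4.78, 4.56, 4.79 and 4.74 in AD animals. The AD animals lay close together and below every AD-GE animal. The same 4 AD animals also lay below every animal of AD-GE-RES (difference 0.53) and of AD-RES (0.62, or 0.34 without animal 1 of AD-RES), which are not independent of the first comparison because they share them.

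The third comparison added the enriched extract. In AD-GE-RES against AD animals, 1 higher and 3 lower members reached an unadjusted p under 0.05, where 1.15% of all probe sets were higher and 1.25% lower. Groups did not overlap for 3 members, against 1.26% of all probe sets. The split of signs was uneven, with 89 of 138 members lower and a median of -0.04 against 0.01 for all probe sets. SLC35A4 gave 6.03, 5.73, 6.06 and 5.76 in AD-GE-RES animals, against 5.92, 6.31, 6.24 and 6.24 in AD animals. Apart from 1 low AD animal, AD lay above. The difference was -0.28 (SE 0.10, limma adjusted p = 1.00), while the other probe set of SLC35A4 differed by 0.06. The next smallest p-values among lower members were those of SLC46A1 (-0.29), SLC44A2 (-0.31), the vesicular zinc transporter SLC30A3 (-0.19) and SLC25A38 (-0.39). The other 2 probe sets of SLC44A2 were higher, by 0.13 and 0.08, and those of SLC46A1 and SLC25A38, which are the ones named in AD against CT, differed by -0.04 and -0.01. With 1 animal left out, SLC44A2 differed by -0.19 (without animal 1 of AD-GE-RES), SLC30A3 by -0.11 (without animal 2 of AD) and SLC25A38 by -0.26 (without animal 3 of AD). Among higher members they were those of SLC2A4RG, a regulator of the insulin-responsive glucose carrier gene (0.33), SLC9A3R2 (0.24), SLC3A1, the aspartate/glutamate carrier SLC25A12 (0.19) and the mitochondrial carrier SLC25A14 (0.18). SLC25A14 went the other way at its second probe set (-0.23). SLC25A12 differed by 0.11 without animal 2 of AD-GE-RES, and SLC25A14 by 0.10 without animal 4 of AD.

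The fourth comparison was resveratrol alone. In AD-RES against AD animals, 2 higher and 8 lower members passed that unadjusted threshold, where 1.8% of all probe sets were higher and 2.65% lower. Groups did not overlap for 7 members, against 2.81% of all probe sets. Again 92 of 138 members were lower, with a median of -0.04 against -0.00 for all probe sets. Sugar carriers were lower at 14 of 19 probe sets, nucleotide sugar carriers at 12 of 14 and amino acid and peptide carriers at 15 of 21, none past the adjusted threshold.

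SLC25A21, the mitochondrial carrier of 2-oxoadipate in lysine breakdown, had the smallest p of any member in the 5 comparisons. It gave 4.33, 4.42, 4.22 and 4.59 in AD-RES animals, against 3.85, 3.86, 3.99 and 4.03 in AD animals. Every AD-RES animal lay above every AD animal, at a low signal. The difference was 0.46 (SE 0.12, unadjusted p = 0.0010, limma adjusted p = 0.980). It was 0.39 in males and 0.52 in females. The lysosomal amino acid sensor SLC38A9 (0.30) and the sulphate donor carrier SLC35B3 (0.37) also had groups that did not overlap, as did the mitochondrial carrier SLC25A30 (-0.31). For SLC35B3 the groups all but touched, with 7.8901 as the lowest AD-RES value and 7.8898 as the highest AD value. SLC12A4, a potassium-chloride cotransporter, differed by 0.36, SLC35B2, a second sulphate donor carrier, by -0.28 and SLC44A2 by -0.34. SLC38A9 differed by 0.01 at its other probe set, and SLC44A2 by -0.08 and 0.16 at its other 2.

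The widest difference of the comparison was that of SLC11A1, which pumps iron and manganese out of phagosomes in monocytes and macrophages. It gave 6.74, 6.92, 8.36 and 8.54 in AD-RES animals, against 8.61, 8.79, 7.94 and 8.43 in AD animals. Both AD-RES females lay far below all other animals of the 2 groups, and both AD-RES males lay among the AD animals. The difference was -0.80 (SE 0.36, limma adjusted p = 0.980). It was 0.27 in males and -1.87 (SE 0.36, limma adjusted p = 0.112) in females, and this contrast between the sexes was not tested. SLC1A5 had a like pattern with 8.19, 7.88, 8.43 and 8.64 in AD-RES animals, against 9.07, 8.84, 8.38 and 8.73 in AD animals. Its difference of -0.47 (SE 0.17) was -0.01 in males and -0.92 in females (limma adjusted p = 0.126). Without animal 1 of AD-RES the difference of SLC11A1 was -0.50, and without animal 2 that of SLC1A5 was -0.31.

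Monocyte genes moved with SLC11A1. The mean of 6 monocyte genes, relative to all arrays, was -1.16 and -0.71 in the AD-RES females and 0.36 and 0.30 in the AD-RES males, against 0.53 and 0.70 in the AD females and 0.18 and 0.39 in the AD males. Over the 24 animals SLC11A1 followed this mean with Pearson r = 0.947 and Spearman rho = 0.937 (permutation p = 1e-05 for both, the smallest the permutations can give, adjusted p = 6e-05 and 0.00012 over 12 relations). It was 0.919 without the 2 animals farthest from the median, and 0.947 after group means were removed. The glucose carrier SLC2A3 (r = 0.810, rho = 0.810) and SLC16A3 (r = 0.668, rho = 0.637) followed it less closely, with permutation p-values adjusted over the same relations of at most 0.00412. The genes and the measures were chosen after their values had been seen. The AD-GE animals lay between -0.75 and -0.18 on the monocyte mean, all below the AD animals, which lay between 0.18 and 0.70. SLC11A1 differed by -0.62 and SLC2A3 by -0.53 between them. The part of monocyte number in these differences was not tested.

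**Figure D3:**
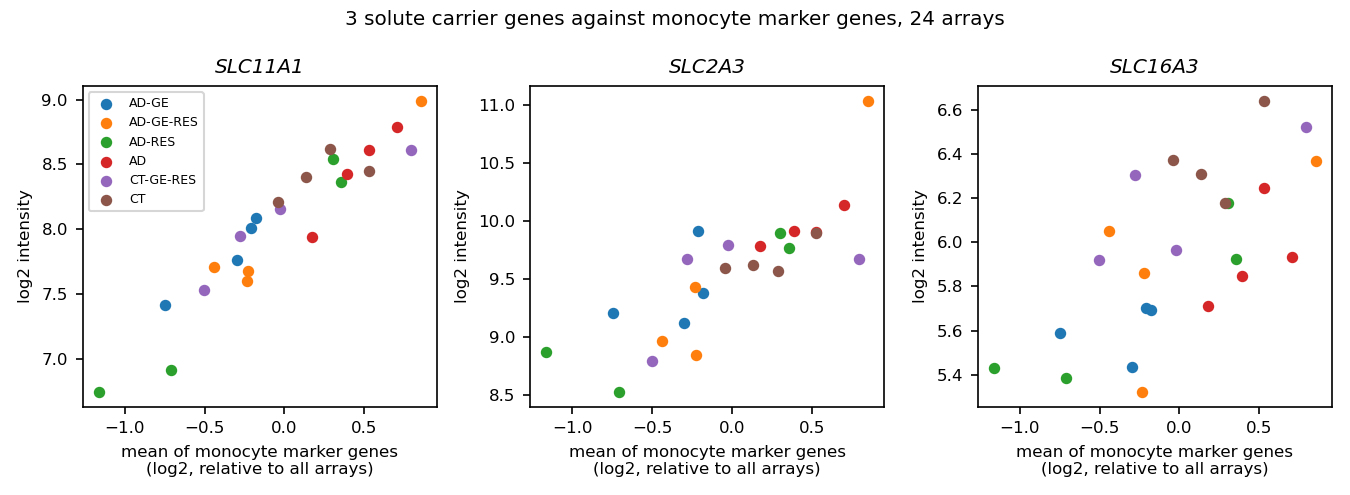
Log2 intensity of SLC11A1, SLC2A3 and SLC16A3 (vertical axes) against the mean of 6 monocyte marker genes relative to all arrays (horizontal axis), with 1 point per animal coloured by diet. SLC11A1 lies closest to a line (r = 0.947), with 2 AD-RES animals at the lower left and 1 AD-GE-RES animal at the upper right.

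The fifth comparison gave the enriched extract with chow. In CT-GE-RES against CT animals, 6 members were higher and 8 lower at that unadjusted threshold. This was 10.1% of the members, where 3.87% of all probe sets were higher and 2.93% lower. Groups did not overlap for 8 members, against 4.03% of all probe sets. Sugar carriers were lower at 12 of 19 probe sets, 4 of them with an unadjusted p under 0.05, and mitochondrial carriers were higher at 16 of 23.

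SLC22A5, which takes up carnitine for fatty acid oxidation, gave 7.13, 7.32, 7.41 and 7.26 in CT-GE-RES animals, against 7.10, 6.91, 6.68 and 7.06 in CT animals. SLC35B1, which supplies ATP to the endoplasmic reticulum, gave 8.44, 8.16, 8.12 and 8.29 in CT-GE-RES animals, against 7.93, 8.12, 8.04 and 7.53 in CT animals. In both genes the groups did not overlap, but the gaps were narrow. The lowest CT-GE-RES and highest CT values were 7.13 and 7.10 for SLC22A5, and 8.1195 and 8.1190 for SLC35B1. The differences were 0.34 (SE 0.13) and 0.35 (SE 0.14), each with a limma adjusted p of 0.700. Without animal 4 of CT, that of SLC35B1 was 0.22.

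Lower with the extract were SLC45A3 (-0.33), the zinc importer SLC39A5 (-0.28), the kidney sugar transporter SLC5A10 (-0.39), the glutamate transporter SLC1A1 (-0.31) and the insulin-responsive glucose carrier SLC2A4. SLC2A4 gave 5.99, 5.97, 5.72 and 5.66 in CT-GE-RES animals, against 6.04, 6.03, 6.10 and 6.35 in CT animals. Groups did not overlap, by a narrow gap. The difference was -0.29 (SE 0.12, limma adjusted p = 0.700), and -0.09 at its other probe set. Without animal 4 of CT, SLC5A10 differed by -0.22 and SLC39A5 by -0.17, and without animal 1 of CT-GE-RES, SLC1A1 differed by -0.48. The other probe sets of SLC45A3 differed by -0.28 and 0.00. SLC35C2, a relative of the Golgi fucose carrier, was higher by 0.41 and by 0.13 at its other probe set. SLC38A1 was higher by 0.56, or by 0.24 without animal 4 of CT, and differed by 0.24 and -0.04 at its other probe sets. The potassium-chloride cotransporter SLC12A4 was higher by 0.49, or by 0.27 without animal 4 of CT-GE-RES.

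When the 16 animals on the atherogenic diet were set against the 8 on chow, 0 members and 0% of all probe sets passed the adjusted threshold. At an unadjusted p under 0.05 there were 4 members higher and 10 lower, where 6.46% of all probe sets were higher and 8.75% lower. The members' 10.1% was below the 15.2% of all probe sets. SLC9A3R1 came nearest to a call, with a lowest, median and highest log2 intensity of 10.00, 10.51 and 10.88 in atherogenic animals, against 10.62, 10.88 and 11.19 in chow animals. Chow animals were higher, with overlap. The difference was -0.41 (SE 0.10, limma adjusted p = 0.0908). SLC16A3 had 5.32, 5.78 and 6.37 in atherogenic animals, against 5.92, 6.31 and 6.64 in chow animals, a difference of -0.49 (SE 0.12, limma adjusted p = 0.0927). SLC25A36 had 5.42, 6.08 and 6.49 in atherogenic animals, against 5.29, 5.73 and 5.90 in chow animals, a difference of 0.37 (SE 0.10, limma adjusted p = 0.108). SLC45A3 (-0.29, adjusted p = 0.129) and SLC25A14 (-0.23, adjusted p = 0.176) followed. The other probe sets of SLC45A3 differed by -0.10 and 0.00, and that of SLC25A14 by 0.02. Without animal 2 of AD-GE-RES, 3 members passed: SLC9A3R1 (limma adjusted p = 0.0385), SLC25A36 (0.0391) and SLC33A1 (0.0417). The share of all probe sets passing in that fit was not counted. SLC16A3, the lactate exporter, was also lower in AD-GE than in AD by 0.33. Those groups did not overlap, by a narrow gap (highest AD-GE value 5.703, lowest AD value 5.711).

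**Figure D4:**
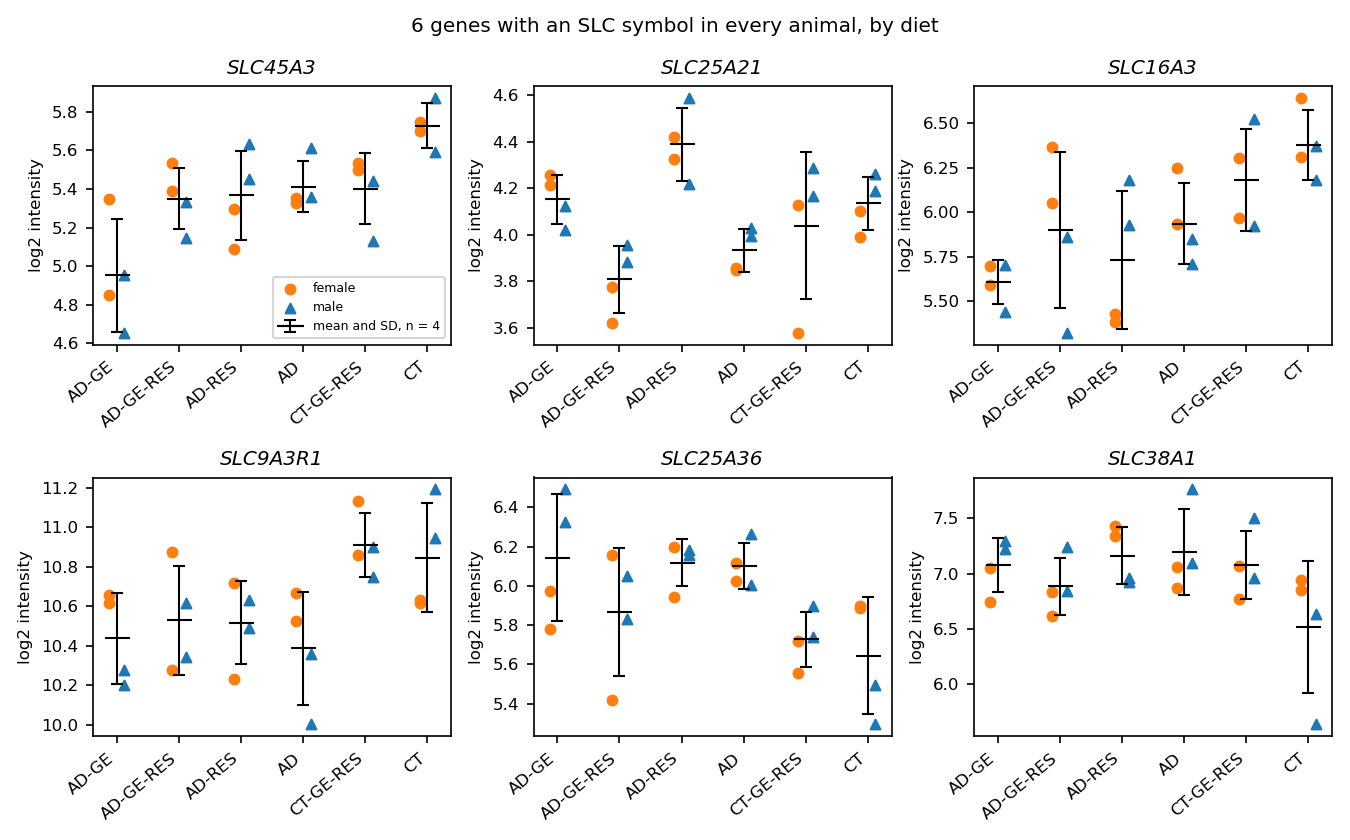
Log2 intensity of SLC45A3, SLC25A21, SLC16A3, SLC9A3R1, SLC25A36 and SLC38A1 in each animal by diet, with circles for females, triangles for males and bars for the mean and SD of 4 animals. SLC9A3R1 and SLC16A3 lie higher in the chow groups, SLC45A3 is lowest in AD-GE at a mean of 4.95, and SLC25A21 is highest in AD-RES at a mean of 4.39.

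The enriched extract was also compared between the base diets, as its difference on the atherogenic diet minus that on chow. At an unadjusted p under 0.05, 0 members were higher and 6 lower, where 1.37% of all probe sets were higher and 1.75% lower, and 0% passed the adjusted threshold. SLC35A4 had the smallest p, with -0.47 (SE 0.14, limma adjusted p = 1.00), and 0.17 at its other probe set. SLC38A1 had -0.87 (SE 0.35), or -0.55 without animal 4 of CT, and -0.31 and -0.08 at its other probe sets. SLC35C2 had -0.67 at 1 probe set and -0.07 at the other. SLC44A2 had -0.44 at 1 probe set, or -0.28 without animal 3 of CT, and 0.19 and -0.09 at the other 2. SLC25A14 had -0.61 at its second probe set and 0.02 at its first. A moderated F test over the 6 diets gave 9 members with an unadjusted p under 0.05, which is 6.52% of the members. This was below the 9.16% of all probe sets, of which 0% passed the adjusted threshold. SLC45A3 (F = 6.04, limma adjusted p = 0.302) and SLC25A21 (F = 5.66, limma adjusted p = 0.305) led.

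Sexes were compared over all diets. Of all probe sets, 0.267% passed the adjusted threshold, with 0 members among them. At an unadjusted p under 0.05, 3 members were higher and 4 lower in males, where 3.09% of all probe sets were higher and 7.23% lower. SLC15A2, which takes up small peptides and bacterial peptide fragments in immune cells, came nearest. Its first probe set had a lowest, median and highest value of 5.12, 6.02 and 6.57 in males, against 5.74, 6.74 and 7.14 in females. Most males lay below most females, and 4 females lay below the highest male: 1 of AD-GE-RES, 1 of CT and both of CT-GE-RES. The difference was -0.72 (SE 0.17, limma adjusted p = 0.0737), and the other 2 probe sets differed by -0.36 and -0.29. Without animal 1 of AD-GE-RES it was -0.84, with an adjusted p of 0.0025, and it also passed without animal 3 of AD-GE-RES or animal 3 of CT-GE-RES. The nucleotide sugar carrier SLC35D2 averaged 7.85 ± 0.28 in males and 8.26 ± 0.31 in females (SD, 12 animals each), a difference of -0.41 (SE 0.12, limma adjusted p = 0.218).

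**Figure D5:**
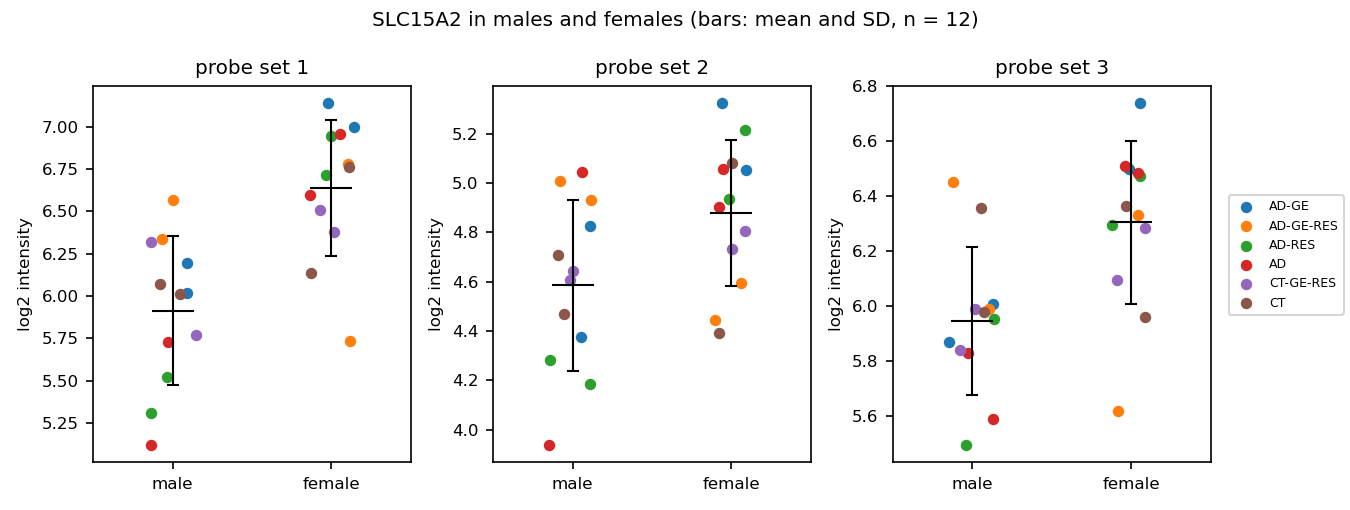
Log2 intensity of the 3 probe sets of SLC15A2 in males and females, 1 point per animal coloured by diet, with bars for the mean and SD of 12 animals. Males average lower at each probe set, and at the first the lowest female is an AD-GE-RES animal at 5.74.

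SLC25A39, which imports glutathione into mitochondria, averaged 7.33 ± 0.49 in males and 6.90 ± 0.44 in females (SD, 12 animals each), a difference of 0.43 (SE 0.19, limma adjusted p = 0.438). Its 4 highest values were 8.34 and 7.996 in the AD-RES males, 7.99 in an AD female and 7.82 in a CT male. The mean of 4 erythroid genes relative to all arrays was 1.47, 1.22, 0.79 and 1.84 in these animals. The part of erythroid RNA in the difference was not tested.

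The difference of AD against CT was also compared between the sexes, in a fit of 12 diet and sex groups. Of all probe sets, 0.117% passed the adjusted threshold and 0 members did. At an unadjusted p under 0.05, 11 members were higher and 7 lower, where 8.94% of all probe sets were higher and 5.98% lower. SLC35A3, which carries UDP-N-acetylglucosamine into the Golgi, had the smallest p among the named genes. It gave 6.56 and 6.001 in AD males, against 5.63 and 5.48 in CT males, while it gave 5.75 and 5.78 in AD females, against 5.81 and 6.31 in CT females. The male difference minus the female one was 1.02 (SE 0.30, limma adjusted p = 0.152). SLC29A1, which takes up nucleosides, had 0.67, and SLC25A20, which brings acylcarnitines into mitochondria, had -0.87, from -0.30 in males and 0.57 in females.

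Within males, 1.34% of all probe sets passed the adjusted threshold in AD against CT, and 3 of 138 members did. Within females 0.00556% of all probe sets passed and 0 members did. In males SLC38A1 was higher, at 7.76 and 7.09 in AD, against 6.64 and 5.64 in CT. It rose by 1.29 (SE 0.28, limma adjusted p = 0.0377), with 0.73 (adjusted p = 0.0865) and 0.26 at its other probe sets. SLC9A3R1 fell to 10.36 and 10.00 in AD males, against 11.19 and 10.95 in CT males, a difference of -0.89 (SE 0.20, limma adjusted p = 0.0443). In females, the differences were 0.07 for SLC38A1 and -0.03 for SLC9A3R1. The tests of male against female difference gave adjusted p-values of 0.189 and 0.194, so neither gene was shown to differ between the sexes. For SLC38A1 that difference was 1.22, or 0.72 without animal 4 of CT. The third call was a probe set with 2 gene entries, higher by 0.60 in AD males (adjusted p = 0.0474). It was also the single call in CT-GE-RES against CT males (0.65, adjusted p = 0.0476), where 0.678% of all probe sets passed.

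These contrasts set 2 males against 2. Leaving out 1 animal at a time changed the calls in AD against CT males. Each such fit leaves 1 animal in a diet and sex group. More members were called without animal 3 of CT. None was called without animal 4 of CT or animal 3 of AD. The same held without animals 3 or 4 of AD-GE or AD-RES, or animals 1 or 2 of CT-GE-RES. The share of all probe sets called was not counted in these fits or in the next. A fit that included the 3′/5′ ratio called 1 member, another probe set of SLC38A1 at 1.00 (adjusted p = 0.0365). Over the 24 animals SLC38A1 ran against the 3′/5′ ratio with r = -0.695 and rho = -0.582 (permutation p = 8e-05 and 0.0033, adjusted 0.00032 and 0.0100 over 12 relations), and r = -0.530 without the 2 animals farthest from the median. SLC25A36 had r = -0.550, but rho = -0.317 (adjusted permutation p = 0.318) and r = -0.287 without those 2 animals, so that relation rests on them. SLC9A3R1 had r = 0.341 with an adjusted permutation p of 0.205.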

How the data were processed

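Each array's deposited column held a linear intensity for every probe set. RMA and GCOS are listed, per the submitters' processing notes, with roles and versions not given in the sources used here. They were taken to log2 here. After 124 control probe sets were removed, the lowest 25% by mean (under 3.57 on the log2 scale) were left out. Of the 17999 tested, 8540 had 1 symbol in the platform annotation, 168 several and 9291 none. Positions and sequences were not used here.

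limma 3.58.1 in R 4.3.3 fitted the 6 group means and sex to all 24 arrays (17 residual and 3.60 prior degrees of freedom), two-sided, with p-values adjusted by Benjamini and Hochberg. A fit of 12 diet and sex groups gave the contrasts within sexes. p-values measure spread between animals, and precision is limited by the 4 arrays a group. The scripts were tested on simulated data. In each comparison and direction the 5 genes with the smallest p were picked, in the other tests the 5 smallest, plus every call and the 12 brightest genes. Most of these, but not all, are given in the text. The members, lists and tests were chosen with earlier results of these data known. Alternatives covered the filter, normalization, array weights, the 3′/5′ ratio, the variance prior, the sex term, the sexes alone and each animal left out. The 12 correlations used 1e+05 permutations.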

Additional observations from a re-analysis of the deposited data

Results flagged for a closer look

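Among 216 sets of 4 values (a named probe set in a diet group), 11 held a value far from the other 3 animals, which is 5.09%, and chance flags about 1 in 20. High values were those of SLC45A3 in animal 4 of AD (5.61, with the others at 5.36 or below), SLC1A1 in animal 1 of CT-GE-RES (4.49, others at 3.96 or below), SLC33A1 in animal 2 of AD-GE-RES (5.77, others at 5.04 or below), SLC15A2 in animal 1 of CT (6.76, others at 6.14 or below), SLC25A24 in animal 3 of AD (10.49, others at 10.04 or below) and SLC2A3 in animal 1 of CT (9.90, others at 9.63 or below). Low values were those of SLC12A4 in animal 1 of AD-RES (4.35, others at 4.73 or above), SLC25A36 in animal 1 of AD-RES (5.94, others at 6.16 or above), SLC25A14 in animal 4 of CT (5.30, others at 5.79 or above), SLC2A3 in animal 3 of CT-GE-RES (8.79, others at 9.67 or above) and SLC1A5 in animal 3 of CT (8.45, others at 8.91 or above).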

How the results depend on the processing

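The count of called members stayed at 0 in AD against CT, in CT-GE-RES against CT and in the 3 supplemented atherogenic groups against AD under every alternative that kept both sexes. With males alone it was 3 in AD against CT and 1 in CT-GE-RES against CT. Between the sexes the count was 3 with array weights and 2 without animal 4 of CT and animal 1 of AD-GE-RES (an alternative chosen after seeing the data). In AD against CT males, 3 calls became 0 with array weights and 1 when the fit included the 3′/5′ ratio, and 2 without those 2 animals, of which SLC9A3R1 was 1 (-1.01). In CT-GE-RES against CT males, the 1 call became 0 under quantile normalization, median centring, array weights, the 3′/5′ ratio, the robust variance prior and without those 2 animals. Leaving out 1 animal at a time gave 0 to 9 calls in AD against CT males and 0 to 19 in CT-GE-RES against CT males, both highest without animal 3 of CT, which leaves 1 CT male assumed to vary like the other groups. It gave 0 to 3 in atherogenic against chow animals, 0 to 3 between the sexes (highest without animal 1 of AD-GE-RES) and 0 to 4 in the sex by diet interaction (highest without animal 3 of CT). The alternatives for the contrasts within males were chosen after seeing the data, and the causes were not tested. No named difference changed sign under the alternatives that kept both sexes. Signs within single sexes were not part of this check, and SLC11A1, lower in AD-RES than in AD over both sexes, was higher in males. The median of all members lay between -0.03 and 0.03 in AD against CT and between -0.04 and 0.01 in CT-GE-RES against CT when 1 animal was left out. No paired analysis was possible because replicate numbers only name animals and pair none across diets.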

Other observations

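Genes that work with these carriers were read from lists of partner pathways, and 0 of their genes passed the adjusted threshold in any of the 5 comparisons. Of 14 tested genes on the glycolysis list, 11 were lower in AD-GE than in AD (median -0.15) and 12 in AD-RES than in AD (median -0.15). The list includes TXNIP, which is not a glycolytic enzyme and was counted as lower in both (-0.19 and -0.004). The glycolytic enzyme PGK1 differed by -0.43 (SE 0.12, limma adjusted p = 0.683) in AD-GE against AD and by -0.35 (SE 0.12, limma adjusted p = 0.980) in AD-RES against AD, which share the AD animals. The haem-degrading enzyme HMOX1 differed by -0.68 in AD-GE, -0.42 in AD-GE-RES and -0.64 in AD-RES against AD, and by -0.64 in CT-GE-RES against CT, each with an SE of 0.30.

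ABC transporters, the ATP-driven pumps, were lower at 7 of 7 tested genes in AD against CT (median -0.17). The cholesterol exporter ABCA1 differed by -0.59 in AD against CT and by 1.01 in AD-GE against AD (SE 0.31 for both, limma adjusted p = 0.766 and 0.683). The drug efflux pump ABCB1 differed by 0.56 in AD-GE-RES against AD, 0.66 in AD-RES against AD and 0.73 in CT-GE-RES against CT (SE 0.21 for each), and by -0.12 in AD-GE against AD. The comparisons with AD share its animals.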
